A study of Mus musculus with 12 samples.

Results

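Mitochondria build a small number of inner-membrane proteins on ribosomes of their own, whose RNA comes from mitochondrial DNA and whose proteins are all encoded in the nucleus, made in the cytosol and imported. The genes of these proteins are named *Mrpl* for the large subunit, which forms the peptide bond, and *Mrps* for the small subunit, which reads the messenger RNA. Part of the proteins have counterparts in bacterial ribosomes and the others exist only in mitochondria. Here the set was every gene whose symbol begins with *Mrpl* or *Mrps* and a number, which gave 77 of the 19938 genes measured, 48 named for the large and 29 for the small subunit. The names and the structures differ at a few places: *Mrps18a* and *Mrps30* were later found in the large subunit, and *Mrps36* was later assigned to the oxoglutarate dehydrogenase complex. They were kept where their names put them.

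The genes were measured in whole livers of mouse fetuses taken by cesarean section at E19.5, the last day of gestation, from matings of heterozygous *Ppara* parents. *Ppara* encodes PPARα, a fatty acid-activated nuclear receptor, and the comparison asks which liver genes depend on it just before birth. It set 6 fetuses lacking PPARα (PPARa -/-, called *Ppara*-/- here) against 6 wild-type fetuses (PPARa +/+, *Ppara*+/+), all untreated, with 1 liver per array. SV129 is the strain given by the labels, and the methods give a different background. The deletion was present in every cell of the fetus and not in the liver alone. By the study's methods each genotype drew on fewer litters than livers, so some livers had a mother in common, which the p-values below ignore.

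The array medians ranged from 6.71 to 6.75 on the log2 scale, and all pairs of arrays correlated between 0.988 and 0.996. *Ppara* itself ranged from 9.66 to 9.94 in *Ppara*-/- and from 10.71 to 10.95 in *Ppara*+/+ livers, with no overlap, a log2 difference of -1.01 ± 0.06 (SE, limma adjusted p = 3.57e-08), although the position of its probes relative to the deleted part is not known here. Hepatocyte markers were bright in all livers (mean log2 signal 12.75 to 13.13 over 9 genes) and 1 of 9, *Tat*, was called lower. Called higher were 1 of 4 hepatoblast, 2 of 10 macrophage and 1 of 6 stellate cell markers, and 1 further stellate cell marker was called lower. None of 9 erythroid, 10 granulocyte, 4 megakaryocyte, 6 endothelial, 4 cholangiocyte and 13 cell cycle genes was called with limma at an adjusted p under 0.05. The shares of all genes were 3.82% called lower and 3.42% called higher. At an unadjusted p under 0.05, 2 hepatoblast, 2 erythroid, 3 macrophage, 2 granulocyte and 1 stellate cell genes were higher. Lower in this way were 1 hepatocyte, 1 macrophage, 1 endothelial and 1 stellate cell gene. Of all genes 10.5% were higher and 10.4% lower at that threshold. Some lists leaned 1 way beyond these calls. All 4 hepatoblast markers had positive differences, and *Gpc3* and *Igf2* were higher in the 6 *Ppara*-/- livers than in any *Ppara*+/+ liver. The same held for 1 of 10 macrophage and 1 of 6 stellate cell markers, and for 260 of all 19938 genes. The mean of the hepatoblast list ranged from 12.63 to 12.75 in *Ppara*-/- and from 12.49 to 12.68 in *Ppara*+/+ livers. All 6 endothelial (9.50 to 9.61 and 9.48 to 9.73) and all 4 cholangiocyte markers (6.85 to 7.08 and 6.92 to 7.11) had negative differences. Of the 10 macrophage markers (9.22 to 9.42 and 9.19 to 9.30) 6 were positive and 4 negative. An erythroid score was used as a covariate below, and the part of the other cell types in the results was not tested. In whole livers fewer cells of a type and less RNA per cell cannot be told apart.

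Mitochondrial ribosomal protein genes differed little between the genotypes, and the few that were called were lower in the absence of PPARα. Of the 77 genes, 7 were lower in *Ppara*-/- livers and 0 were higher (limma with Benjamini-Hochberg adjustment over all 19938 genes, threshold 0.05). These were *Mrpl18*, *Mrpl16*, *Mrpl20*, *Mrpl13* and *Mrpl49* of the large subunit and *Mrps33* and *Mrps23* of the small subunit, by 1.12-fold to 1.20-fold. The 7 genes are 9.09% of the set, beside 3.82% of all genes called lower, and the 0 higher genes stand beside 3.42% of all genes called higher. Brighter genes were called more often in these arrays, and the set is bright, as 71 of the 77 lie above the 50th percentile of all genes by mean signal. Among the 3686 genes with a mean signal within the middle 50% of the members, 6.89% were called lower and 5.64% higher, so that the share of members called lower is close to that of other genes of like brightness. At an unadjusted p under 0.05, 28 members were lower (36.4%), beside 10.4% of all genes and 17.4% of those of like brightness, and 1, *Mrps28*, was higher, beside 10.5% of all genes. With the erythroid score as covariate 5 members were lower, beside 3.22% of all genes, and *Mrpl20* and *Mrpl13* were no longer called.

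The direction was shared more widely than the calls. The log2 difference, *Ppara*-/- minus *Ppara*+/+, was negative for 62 of the 77 members (80.5%) with a median of -0.05, whereas 46.5% of all genes were negative with a median of 0.01 and 51.0% of the genes of like brightness with a median of -0.0027. In the large subunit 42 of 48 were negative (87.5%), the median was -0.08 and 5 were called lower. In the small subunit 20 of 29 were negative (69.0%), the median was -0.03 and 2 were called lower. The standard error of a single member's difference was typically 0.05 (0.04 to 0.11), and the SD of the mean over a subunit between *Ppara*+/+ livers was 0.037 for the large and 0.049 for the small subunit. Genes are not independent replicates, and no test was run over the set. Sorted by origin, 4 of 48 members with a bacterial counterpart were lower, all of the large subunit, and 3 of 28 that are specific to mitochondria, *Mrpl49*, *Mrps33* and *Mrps23*.

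**Figure D1:**
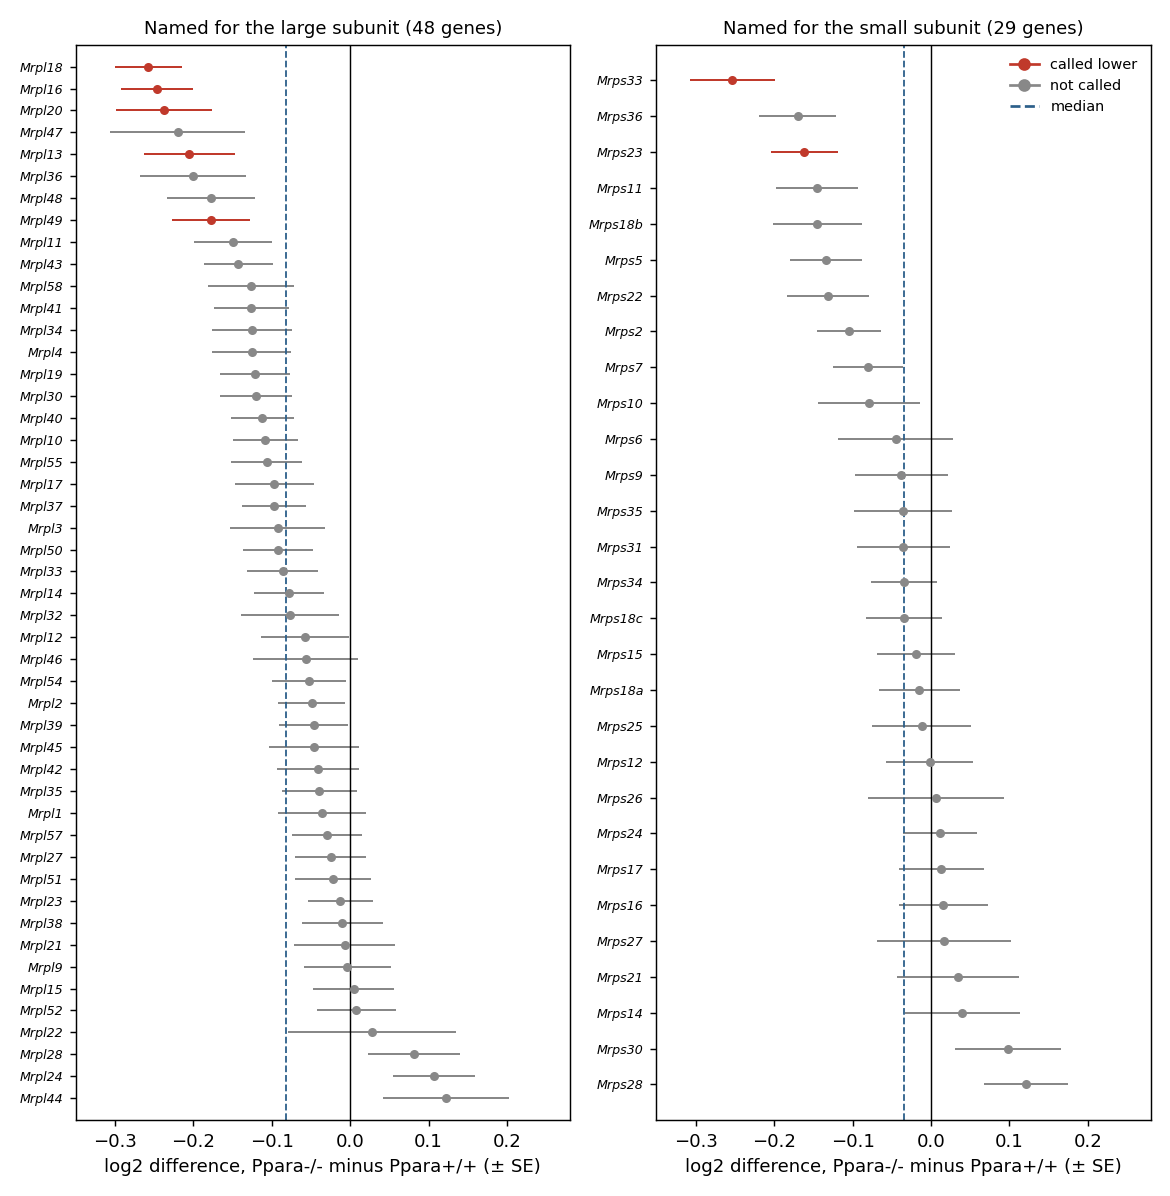
Log2 difference between *Ppara*-/- and *Ppara*+/+ livers (x axis, negative where lower in *Ppara*-/-, points with bars for ± SE), of the 48 genes named for the large (left) and the 29 named for the small subunit (right), sorted by size, with red for the genes called lower and a dashed line for the median of each panel. Most points of the large subunit lie left of 0 around a median of -0.08, the small subunit is centred at -0.03, and no gene was called higher.

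The largest difference was that of *Mrpl18*, the counterpart of bacterial ribosomal protein L18. Its log2 signal ranged from 8.85 to 9.01 in *Ppara*-/- livers (median 8.96) and from 9.15 to 9.27 in *Ppara*+/+ livers (median 9.23). The brightest *Ppara*-/- liver was thus dimmer than the dimmest *Ppara*+/+ liver. The difference was -0.26 ± 0.04 (SE, n = 6 per genotype, limma adjusted p = 0.0022), 16.3% less signal, and it was called whichever liver was left out (highest limma adjusted p 0.0073).

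*Mrpl16*, the counterpart of bacterial L16, ranged from 9.02 to 9.13 in *Ppara*-/- livers (median 9.04) and from 9.22 to 9.41 in *Ppara*+/+ livers (median 9.31). Again the genotypes did not overlap. The difference was -0.25 ± 0.05 (limma adjusted p = 0.0052), and it too was called whichever liver was left out (highest limma adjusted p 0.017).

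*Mrps33*, a small-subunit protein without a bacterial counterpart, ranged from 8.77 to 9.0 in *Ppara*-/- livers (median 8.86) and from 8.96 to 9.22 in *Ppara*+/+ livers (median 9.18). The groups overlapped only because *Ppara*-/- mouse 3, at 9.0, lay above *Ppara*+/+ mouse 6, at 8.96. The difference was -0.25 ± 0.05 (limma adjusted p = 0.011) and was called whichever liver was left out (highest limma adjusted p 0.034). *Mrps33* had a dimmer probeset, which differed by -0.22 (limma adjusted p = 0.024 over all probesets). The gene table also holds a pseudogene named after *Mrps33*, on another chromosome, and which of the copies each probeset reads is not known here.

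These 3 genes were the members whose calls did not depend on a single liver, so the sequences before their RefSeq start sites are given here, as printed 5′ to 3′ on the strand of the gene. Capitals mark CCGGAAG, the core bound by ETS factors such as GABP, one of the regulators of genes for mitochondrial proteins. The *Mrpl18* sequence is at chr17:12916092-12916341 (GRCm38.p6, minus strand) and holds the motif 240 to 234 bases before the start, that of *Mrps33* at chr6:39810937-39811186 (minus strand) and that of *Mrpl16* at chr19:11770165-11770414 (plus strand).
Mrpl18: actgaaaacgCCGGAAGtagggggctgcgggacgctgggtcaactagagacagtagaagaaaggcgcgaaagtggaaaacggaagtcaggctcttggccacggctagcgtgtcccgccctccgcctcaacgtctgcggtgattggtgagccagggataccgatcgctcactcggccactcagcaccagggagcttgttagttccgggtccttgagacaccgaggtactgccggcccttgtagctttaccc
Mrps33: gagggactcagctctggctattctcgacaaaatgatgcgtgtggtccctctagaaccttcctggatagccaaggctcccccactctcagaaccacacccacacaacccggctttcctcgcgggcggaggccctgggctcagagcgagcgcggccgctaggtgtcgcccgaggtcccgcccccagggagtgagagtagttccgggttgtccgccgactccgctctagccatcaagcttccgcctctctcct
Mrpl16: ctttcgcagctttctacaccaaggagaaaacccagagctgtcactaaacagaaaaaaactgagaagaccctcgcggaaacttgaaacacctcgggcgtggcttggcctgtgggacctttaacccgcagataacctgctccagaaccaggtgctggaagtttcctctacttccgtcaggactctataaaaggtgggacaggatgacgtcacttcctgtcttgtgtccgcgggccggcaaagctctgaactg
The search covered both strands of these 250 bases. Beside CCGGAAG it took in TGCGCA, the core of sites for the factor NRF1. It also took in CACGTG, known as the E-box. The fourth was AAGATGGC, a site of the factor YY1, and the last was the recognition element of nuclear receptors, AGGTCA. None of these was found in the *Mrps33* and *Mrpl16* sequences, which leave out the 50 bases after the start. With those bases included, 3 of the 6 windows of called members held CCGGAAG and 1 held AAGATGGC.

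Over all members, 74 promoter windows of 300 bases, 250 before to 50 after the start, were found in the RefSeq table for 68 of the 77 genes. CCGGAAG was present in 33.8% of them, beside 12.1% of the 19177 windows of all genes tested. TGCGCA was present in 29.7% against 10.3% and AAGATGGC in 16.2% against 3.18%. CACGTG was found in 9.46% against 8.24%. The element AGGTCA, which PPARα and other nuclear receptors bind, was found in 13.5% of member windows against 14.2%. AGGTCA repeated after 1 base, the arrangement bound by PPARα with its partner RXR, was in 0 of the 74 windows against 0.0417% of the windows of all genes tested. Only exact repeats were counted, and 8 of the 19177 windows held one. So rare a match was hardly to be met in 74 windows, and the 0 says nothing of PPARα binding at the members. The median log2 difference was -0.03 for the 25 genes with CCGGAAG and -0.06 for the 43 without it, and -0.05 for the 21 genes with TGCGCA and -0.08 for the 47 without it. It was -0.10 for the 5 genes with CACGTG and -0.06 for the 63 without it. For the 10 genes with AGGTCA it was -0.04, and for the 58 without it -0.07. For AAGATGGC it was -0.06 both with and without. None of the 10 genes with the nuclear receptor element was called lower, against 6 of the 58 without it. With calls so few, these counts cannot tell the groups apart. For the ETS core the counts were 3 of 25 with and 3 of 43 without, and for the NRF1 core 1 of 21 and 5 of 47. For the E-box they were 1 of 5 and 5 of 63, and for the YY1 site 1 of 12 and 5 of 56. A match of letters is not a binding site, and its absence from a window says nothing of other positions.

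The other 4 called genes were nearer to the threshold. *Mrpl20*, the counterpart of bacterial L20, ranged from 8.85 to 9.18 in *Ppara*-/- livers (median 8.94) and from 9.06 to 9.34 in *Ppara*+/+ livers (median 9.21). *Mrpl13*, the counterpart of bacterial L13, ranged from 8.66 to 8.87 (median 8.74) and from 8.84 to 9.16 (median 8.97) in the same order. In both genes 5 of the 6 livers without PPARα were under the whole *Ppara*+/+ range, and mouse 3 was the exception. The differences were -0.24 ± 0.06 for *Mrpl20* (limma adjusted p = 0.032) and -0.21 ± 0.06 for *Mrpl13* (limma adjusted p = 0.047).

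*Mrpl49*, a large-subunit protein specific to mitochondria, ranged from 9.18 to 9.36 in *Ppara*-/- (median 9.31) and from 9.36 to 9.59 in *Ppara*+/+ livers (median 9.46). *Mrps23*, a mitochondria-specific protein of the small subunit, ranged from 8.54 to 8.68 (median 8.60) and from 8.69 to 8.82 (median 8.76). In both the genotypes did not overlap, by a margin that for *Mrpl49* was under 0.01. The differences were -0.18 ± 0.05 for *Mrpl49* (limma adjusted p = 0.045) and -0.16 ± 0.04 for *Mrps23* (limma adjusted p = 0.034). These 4 calls rested on the full set of livers: of the 12 comparisons that left out 1 liver, *Mrps23* was called in 4, *Mrpl20* and *Mrpl13* in 3 each and *Mrpl49* in 2, with limma adjusted p up to 0.11.

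**Figure D2:**
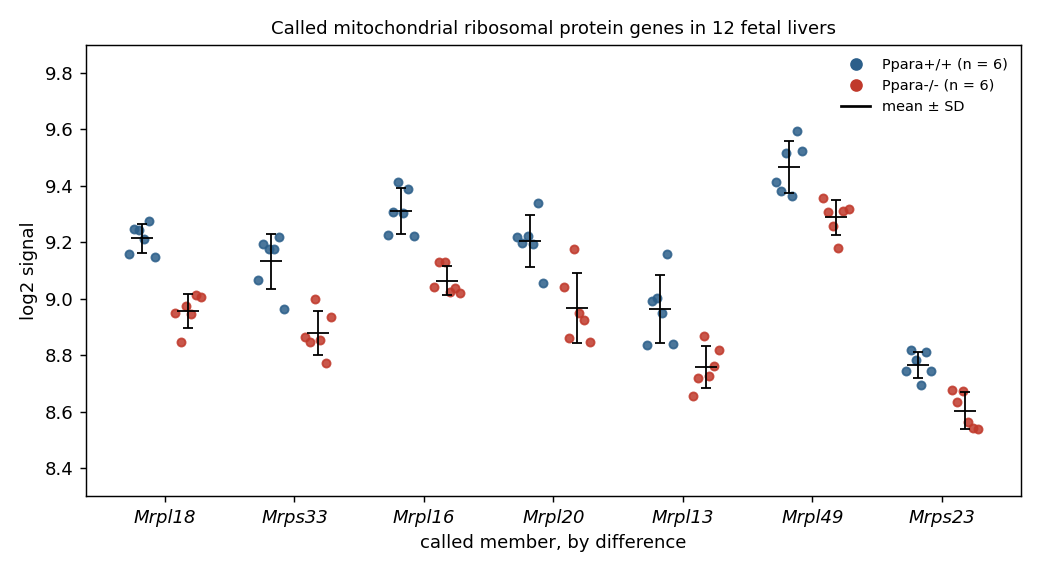
Log2 signal (y axis) of the 7 genes called lower, with 1 point per liver in mouse order, blue for the 6 *Ppara*+/+ and red for the 6 *Ppara*-/- livers, and bars for the mean ± SD. The groups do not overlap for *Mrpl18*, *Mrpl16*, *Mrpl49* and *Mrps23*, and for *Mrps33*, *Mrpl20* and *Mrpl13* 1 *Ppara*-/- liver, mouse 3, lies among the *Ppara*+/+ livers.

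Non-overlapping livers were seen in 5 members (6.49%), the 4 just named and *Mrpl37*, beside 2.29% of all genes with the 6 *Ppara*-/- livers entirely under the 6 *Ppara*+/+ livers and 3.85% of the genes of like brightness. *Mrpl37*, a mitochondria-specific protein of the large subunit, ranged from 9.74 to 9.86 in *Ppara*-/- and from 9.87 to 9.997 in *Ppara*+/+ livers. Its difference of -0.10 ± 0.04 did not pass (limma adjusted p = 0.19). *Mrpl47* had a larger difference, -0.22 ± 0.09, but its livers scattered from 6.50 to 7.02 and from 6.81 to 7.21, and it was not called either (limma adjusted p = 0.15). *Mrps36*, which is no ribosomal protein in the later assignment, was just outside the threshold at -0.17 ± 0.05 (limma adjusted p = 0.052), with 4 of 6 *Ppara*-/- livers under the *Ppara*+/+ range, and its dimmer probeset differed by -0.16 (0.071 over all probesets). The gene table holds 3 pseudogenes named after *Mrps36*.

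The 3 genes of the *Mrps18* family, paralogs that are counterparts of the same bacterial protein, gave unlike values. *Mrps18b* differed by -0.14 ± 0.06 (limma adjusted p = 0.15), *Mrps18c* by -0.03 ± 0.05 (0.77) and *Mrps18a*, which the structures place in the large subunit, by -0.01 ± 0.05 (0.92), and none was called. For *Mrps18b* 5 *Ppara*-/- livers were under the *Ppara*+/+ range, whereas mouse 4, at 10.20, was above 5 of the 6 *Ppara*+/+ livers. For *Mrps18c* and *Mrps18a* only 1 of 6 was under that range.

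At the other end, 15 members had a positive difference and none was called. *Mrpl44*, a protein with a fold of the ribonuclease III family, differed by 0.12 ± 0.08 (limma adjusted p = 0.44), *Mrps28* by 0.12 ± 0.05 (0.21), *Mrpl24*, the counterpart of bacterial L24, by 0.11 ± 0.05 (0.26), and *Mrps30* by 0.10 ± 0.07 (0.47). *Mrps28* ranged from 8.08 to 8.40 in *Ppara*-/- livers (median 8.20) and from 8.03 to 8.15 in *Ppara*+/+ livers (median 8.11), so that the groups overlapped. *Mrps30* was 7.35 in *Ppara*-/- mouse 1 and 7.68 to 7.83 in the other 5, against 7.53 to 7.64 in *Ppara*+/+ livers, and it was called higher when mouse 1 was left out (limma adjusted p = 0.020). *Mrpl27* was the only one of 8 members with a second probeset whose probesets disagreed in sign, at -0.02 and 0.02. Of these 8 members 5, *Mrpl27* among them, have a pseudogene named after them, and which copy each probeset reads is not known here.

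Averaged over the members, the *Ppara*-/- livers were not alike. The mean deviation of the large-subunit genes from the *Ppara*+/+ mean was -0.12 in *Ppara*-/- mouse 1, between -0.08 and -0.09 in mice 2, 4, 5 and 6, and -0.01 in mouse 3, whereas the *Ppara*+/+ livers ranged from -0.04 to 0.05. All but mouse 3 therefore lay below every *Ppara*+/+ liver. For the small subunit the *Ppara*-/- livers ranged from -0.12 to 0.02 and the *Ppara*+/+ livers from -0.06 to 0.07, and the genotypes overlapped broadly, with only mice 1 and 5 below every *Ppara*+/+ liver. Of the 77 members 69 lay below the *Ppara*+/+ mean in mouse 1 and 45 in mouse 3, and between 21 and 58 did so in single *Ppara*+/+ livers.

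**Figure D3:**
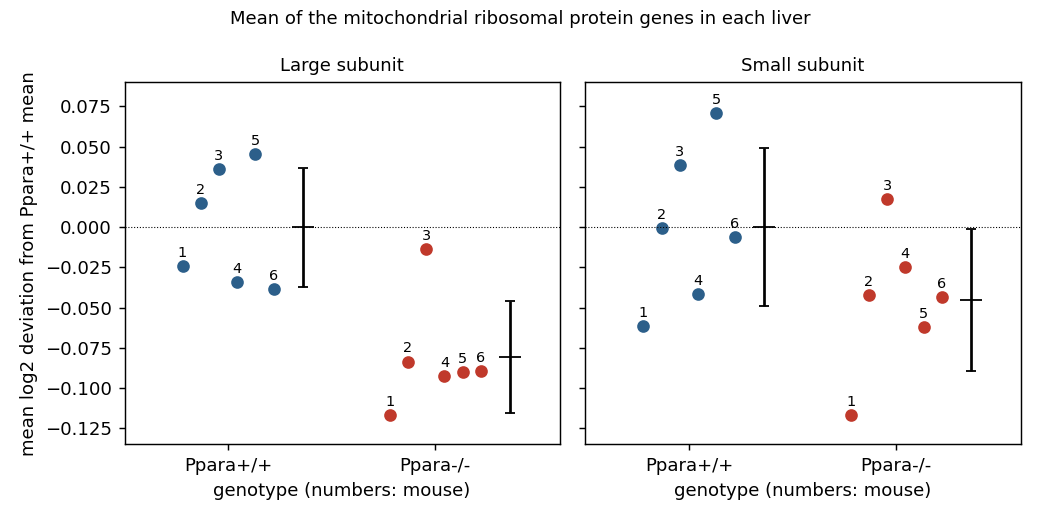
Mean log2 deviation from the *Ppara*+/+ mean (y axis) over the genes of the large (left) and small subunit (right) in each of the 12 livers, with the mouse number beside each point and bars for the mean ± SD of 6 livers. In the large subunit every *Ppara*-/- liver other than mouse 3, at -0.01, lies below all *Ppara*+/+ livers, and in the small subunit the genotypes overlap.

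The number of calls depended on single livers. The members called lower fell in number from 7 to 3 when mouse 2, 4, 5 or 6 of the *Ppara*-/- group or mouse 3 or 5 of the *Ppara*+/+ group was left out, and to 4 when it was mouse 1 or 2 of the *Ppara*+/+ group. It was 6 without *Ppara*-/- mouse 3 or *Ppara*+/+ mouse 4, and it rose to 8 without *Ppara*-/- mouse 1 and to 9 without *Ppara*+/+ mouse 6. Among all genes, between 447 and 1147 were called lower when 1 liver was left out, instead of 761. They numbered 447 to 636 where 3 members were called, 1147 where 8 were and 1130 where 9 were. The median difference over the 77 members stayed between -0.07 and -0.05 and 55 to 67 members were negative in these comparisons.

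The genotypes also differed in sex, which cannot be balanced here: by *Xist* and Y-linked genes, 5 of the fetuses without PPARα were female and 1 was male, against 3 and 3 in the *Ppara*+/+ group. With a sex score as covariate *Mrpl18*, *Mrpl16* and *Mrps33* were still called lower (limma adjusted p = 0.0065, 0.020 and 0.038), *Mrps36* was called too, and the other 4 were not, beside 2.25% of all genes called lower. In the female livers alone, 5 against 3, 58 of 77 members were negative and none was called with limma, beside 0.632% of all genes called lower. At an unadjusted p under 0.05, 13 members were lower and 1 higher there, beside 4.83% of all genes lower. The labels also give each fetus an animal number, over which the genotypes were unevenly spread. The 6 lowest numbers held 2 *Ppara*-/- and 4 *Ppara*+/+ livers and the 6 highest held 4 and 2. Within the lowest 61 members were negative and none was called with limma, beside 0.818% of all genes called lower, and 13 were lower at an unadjusted p under 0.05, beside 6.56% of all genes. Within the highest 59 were negative and none was called, beside 0.532%, and 9 were lower and 3 higher at an unadjusted p under 0.05, beside 5.08% of all genes lower. With 2 livers in 1 of the genotypes each time, these comparisons detect little.

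Genes that act with the mitochondrial ribosome, on mitochondrial DNA or as regulators of genes for mitochondrial proteins included some with larger differences. Of 97 genes in 6 lists 9 were lower (9.28%) and 1 was higher (1.03%), against 3.82% and 3.42% of all genes and 6.89% and 5.64% of those as bright as the members. Among 4 mitoribosome proteins with other names only *Ptcd3*, a small-subunit protein with RNA-binding repeats, was lower, by -0.26 ± 0.05 (limma adjusted p = 0.0046), while *Dap3*, *Chchd1* and *Gadd45gip1* had positive differences of 0.04 to 0.10 and were not called. Of 16 genes listed for mitochondrial translation, factors and others, 14 were negative and 2 were lower. These were *Gfm1*, the elongation factor that moves the ribosome along the message (-0.31 ± 0.07, limma adjusted p = 0.014), and *Letm1*, an inner-membrane protein of ion exchange (-0.32 ± 0.08, 0.033). Of 30 genes of mitoribosome assembly and rRNA modification 3 were lower, *Gtpbp10*, a GTPase of large-subunit assembly (-0.23 ± 0.05, limma adjusted p = 0.020), *Ngrn*, which is needed for the large-subunit rRNA (-0.21 ± 0.05, 0.021), and *Tfb1m*, a methyltransferase of the small-subunit rRNA (-0.21 ± 0.06, 0.040).

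The genes that charge mitochondrial transfer RNAs held a pair of calls. Of 19 measured, *Qrsl1* fell by 0.42 ± 0.06 on the log2 scale (limma adjusted p = 3.16e-04) and *Gatc* by 0.26 ± 0.04 (0.0014). Both encode subunits of the amidotransferase that makes glutaminyl-transfer RNA in mitochondria, and the third subunit, *Gatb*, differed by -0.10 (0.30). No synthetase in the strict sense was called. Of 16 genes of mitochondrial DNA transcription and replication only *Polg*, the catalytic subunit of the mitochondrial DNA polymerase, was lower (-0.39 ± 0.05, limma adjusted p = 2.90e-04), and *Tfam*, which packs and transcribes that DNA, differed by -0.07 (0.63). *Qrsl1*, *Gatc*, *Polg*, *Ptcd3* and *Gfm1* were called whichever liver was left out, *Gtpbp10* in 11 of 12, *Ngrn* in 9, *Letm1* in 4 and *Tfb1m* in 3.

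None of the 12 regulators of genes for mitochondrial proteins was called lower. At an unadjusted p under 0.05, 4 were higher (33.3%), *Myc*, *Gabpb1*, *Ppargc1a* and *Ppargc1b*. This stands beside 10.5% of all genes and 15.4% of the brighter 50% of genes by mean signal. In the same way 1, *Nfe2l2*, was lower (8.33%, beside 10.4% and 16.8%). *Myc* was called higher (0.33 ± 0.08, limma adjusted p = 0.016), *Ppargc1a*, the coactivator PGC-1α, differed by 0.43 ± 0.15 without passing (0.093), and *Nrf1* and *Gabpa*, whose proteins bind the motifs above, by -0.03 (0.79) and -0.02 (0.90). *Gabpb1* differed by 0.15 ± 0.05 (limma adjusted p = 0.090) and *Nfe2l2* by -0.10 ± 0.04 (0.15). For comparison, and chosen after the data were seen, 82 nuclear genes of the respiratory chain and ATP synthase were counted. Of these, 78 lay above the 50th percentile of signal. Lower were 3 of the 82 (3.66%, beside 3.82% of all genes and 6.70% of the brighter 50%). Negative were 59, and their median was -0.04. At an unadjusted p under 0.05, 17 of the 82 were lower (20.7%) and 1 was higher. Of all genes 10.4% were lower in this way, and of the brighter 50% 16.8%. In 9 of the 82 (11.0%) every *Ppara*-/- liver lay below every *Ppara*+/+ liver. This stands beside 2.29% of all genes, 4.13% of the brighter 50% and 6.49% of the members. Of 61 proteins of the cytosolic ribosome none was lower, 2 were higher, 16 were negative and the median was 0.04, although many of them have near-identical copies. At an unadjusted p under 0.05, 12 of the cytosolic set were higher (19.7%) and 2 lower (3.28%), against 10.5% and 10.4% of all genes. Of the 61, 57 lay above the 50th percentile of signal, and for the brighter 50% these shares were 15.4% and 16.8%. The signs of these medians held under renewed quantile normalization and with all arrays shifted to the same median.

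**Figure D4:**
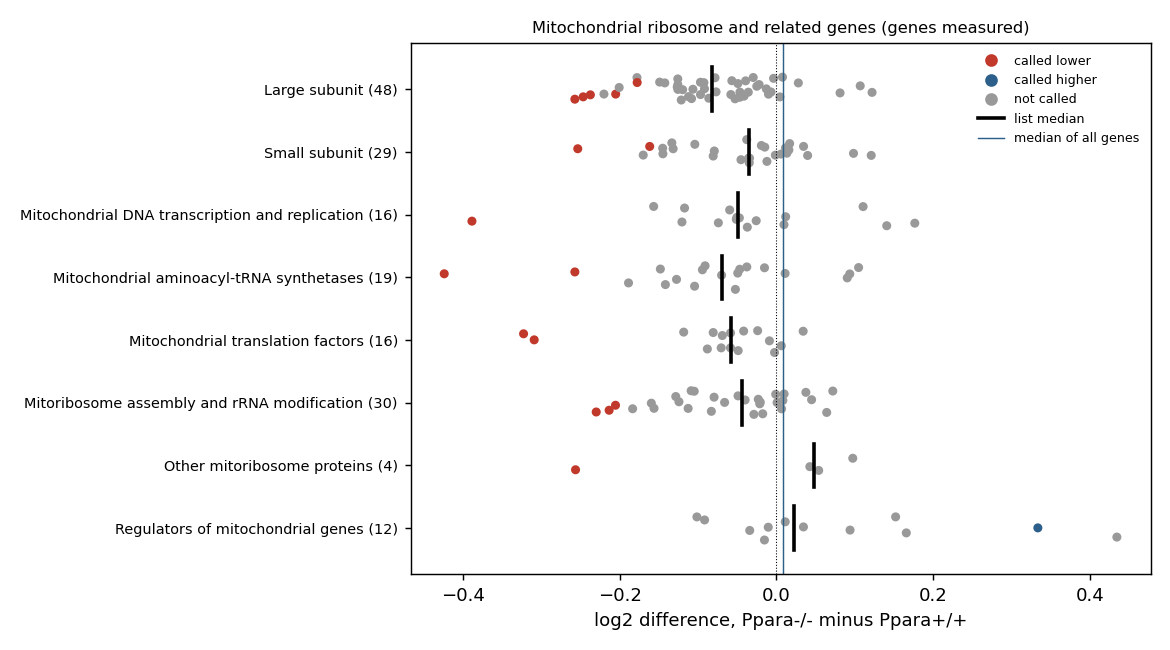
Each point is the log2 difference of 1 gene between *Ppara*-/- and *Ppara*+/+ livers (x axis), for the large and small subunit and 6 further lists (y axis, number of genes in brackets, points spread vertically for legibility), with red and blue for genes called lower and higher, black bars for the list medians and a blue line for the median of all genes, 0.01. The differences of *Qrsl1* (-0.42) and *Polg* (-0.39) exceed those of all 77 ribosomal protein genes, and *Myc* (0.33) is the one gene called higher.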

How the data were processed

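Total RNA of 12 whole livers, purified by TRIzol and silica columns and kept at an RNA integrity number over 8, was hybridized to Affymetrix Mouse Gene 1.0 ST arrays, 1 liver per array. The values deposited are log2 signals from RMA, run by the authors, which corrects background, normalizes between arrays and summarises probes per probeset. Neither a genome build nor a version of RMA is named (not given in the sources used here). Such summaries tend to compress ratios, and precision rests on 6 arrays a genotype. Of 35556 probesets 21789 named 1 gene. The brightest probeset per gene was used (19938 genes), and 1 probeset shared between a member and another gene was not used.

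Genotypes, taken from the labels, were compared in R 4.3.3 by limma 3.58.1 (lmFit, then eBayes, two-sided, no covariate), with Benjamini-Hochberg adjustment over all genes and a threshold of 0.05. Python 3.11.15 with pandas 2.3.3 and matplotlib 3.10.9 served for tables and figures, and the procedure was tested on simulated data. Nothing in the labels ties livers to litters. The p-values set each difference against the spread between livers within a genotype and treat all livers as independent.

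Members, lists, markers and motifs were chosen with earlier results of these data known. Named were all called members, those with non-overlapping livers, the extremes of each subunit, members with unusual names or disagreeing probesets, and called genes of the lists. Some genes under this rule are left undescribed, and *Dap3*, *Chchd1*, *Gadd45gip1*, *Gatb*, *Tfam*, *Ppargc1a*, *Ppargc1b*, *Nrf1*, *Gabpa*, *Gabpb1* and *Nfe2l2* were added after their values were seen. Promoter sequences are those of RefSeq, GRCm38.p6. The alternatives tried were renewed quantile normalization, median centring, removal of genes under the 25th or the 50th percentile of signal, averaging a gene's probesets, trend and robust settings, array weights, mouse number, animal number, sex and erythroid scores, leaving out each liver and, as another test, the exact Mann-Whitney test. The female livers alone, and leaving out *Ppara*-/- mouse 1 with *Ppara*+/+ mouse 6, were chosen after seeing the data.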

Additional observations from a re-analysis of the deposited data

Results flagged for a closer look

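In 13 of 154 groups of 6 livers (77 members in each genotype) 1 liver stood apart from the other 5, with a gap to the nearest that passed Dixon's critical value as a share of the group's whole range. Chance flags about 1 in 20 such groups. *Ppara*-/- mouse 1 was the low liver in 4 genes, with log2 signals of 8.1073 for *Mrpl45*, 9.6568 for *Mrpl15*, 7.8525 for *Mrps14* and 7.348 for *Mrps30*. *Ppara*-/- mouse 3 was the high liver for *Mrpl27*, at 9.0042, and *Mrpl44*, at 7.1097. *Ppara*-/- mouse 4 was high for *Mrpl30*, at 9.7846, and *Ppara*-/- mouse 6 low for *Mrpl37*, at 9.7389. In the *Ppara*+/+ group mouse 1 was high for *Mrps7*, at 9.424, and *Mrpl12*, at 9.7618, and low for *Mrps21*, at 9.8721. *Ppara*+/+ mouse 6 was low for *Mrpl2*, at 8.1991, and *Ppara*+/+ mouse 4 for *Mrpl28*, at 8.2107. None of the 7 genes called lower is among them.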

How the results depend on the processing

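The medians of both subunits kept their sign in all settings. That of the large subunit was -0.10 to -0.07 without single livers and -0.09 to -0.07 otherwise, that of the small subunit -0.04 to -0.01 and -0.06 to -0.02. Arrays measure no protein, and the causes of changed counts were not tested.

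The counts moved. Of the large subunit, lower genes numbered 2 to 7 without single livers, 2 with the sex score, 3 with the erythroid score, 3 with the animal number block, and 10 each with array weights, without the dimmer 50% of genes, and without *Ppara*-/- mouse 1 and *Ppara*+/+ mouse 6. In these last settings calls rose among all genes tested too: 7.31%, 10.6% and 7.78% were lower in that order, instead of 3.82%. With the animal number block the share was 2.58%. Of the small subunit they numbered 1 to 3 without single livers and 4 without the dimmer 50% of genes. For both subunits they were 0 with the exact Mann-Whitney test, under which none of the 19938 genes could pass, as its smallest p with 6 livers against 6, 0.0022, became 0.060 after adjustment (28 members at an unadjusted p under 0.05). They were also 0 in the female livers alone, and within the 6 lowest or the 6 highest animal numbers. *Mrps30* was called higher without *Ppara*-/- mouse 1, alone or with *Ppara*+/+ mouse 6, which made 1 higher small-subunit gene instead of 0 (0 to 1 without single livers).

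In the other lists lower genes numbered 6 to 10 without single livers, 14 with array weights, 14 without *Ppara*-/- mouse 1 and *Ppara*+/+ mouse 6, 2 in female livers, 1 and 0 within the highest and lowest animal numbers, and 0 with the Mann-Whitney test. Higher genes numbered 1 to 4 without single livers, 2 with the animal number covariate, 2 with quantile normalization, 2 without the dimmer 50% of genes, 4 with array weights, 5 without *Ppara*-/- mouse 1 and *Ppara*+/+ mouse 6, and 0 in the Mann-Whitney, female, lowest and highest settings. Among all genes tested, 7.31% were lower and 6.45% higher with array weights. Without *Ppara*-/- mouse 1 and *Ppara*+/+ mouse 6 these shares were 7.78% and 7.67%, and without the dimmer 50% of genes 10.6% and 9.54%.

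With the mouse number as replicate block 8 members were lower, 5 of the large and 3 of the small subunit, and 0 higher. Of all genes 4.13% were lower and 3.99% higher there. Same-numbered livers correlated by 0.02 to 0.39 in their deviations and 3 of 6 livers best with their own number. Whether the number marks a pairing is not known, and the main comparison does not use it.

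Of the 24 named members followed through the settings, *Mrpl18*, *Mrpl16* and *Mrps33* were called in 25 of 29. The sign turned in 33 of 694 values, all in members not called. With the animal number block these were *Mrpl22* (-0.0027), *Mrpl52* (-0.0059), *Mrps14* (-0.0059), *Mrps21* (-0.0039) and *Mrps27* (-0.050). Within the 6 highest animal numbers they were *Mrpl22* (-0.050), *Mrpl52* (-0.067), *Mrps14* (-0.034), *Mrps18a* (0.019), *Mrps21* (-0.090) and *Mrps27* (-0.037). Within the 6 lowest they were *Mrps27* (-0.064) and *Mrps30* (-0.076). In female livers they were *Mrpl52* (-0.038), *Mrps18c* (0.010) and *Mrps27* (-0.037). *Mrps27* was -0.0040 with the animal number covariate, *Mrpl52* -0.0036 with the erythroid and -0.0013 with the sex score, and *Mrps18a* 0.010 without *Ppara*-/- mouse 1 and *Ppara*+/+ mouse 6. Without single livers *Mrpl22* ranged from -0.030 to 0.088, *Mrpl52* from -0.026 to 0.025, *Mrps14* from -0.010 to 0.082, *Mrps18a* from -0.045 to 0.013, *Mrps21* from -0.042 to 0.067 and *Mrps27* from -0.025 to 0.084.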
